A study of Mus musculus with 2 samples.

Results

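The 8 genes described here handle iron and heme: Hmox1, Fth1, Ftl1, Slc40a1, Slc11a1, Tfrc, Blvrb and Ireb2. They were chosen by symbol, and each symbol matched 1 row among the 33696 gene rows of the count matrices. The data are 2 single-cell RNA sequencing libraries of cells sorted for the leukocyte surface protein CD45 from the thalamus of C57B6/J mice with a cortical injury, made by removing cortical tissue (cortical ablation injury, CAI). The control Ab library came from mice given normal rat IgG, and the anti-CD9 Ab library from mice given an antibody against CD9, a tetraspanin of the cell surface. Both antibodies were given through a cannula in the thalamus from day 7 to day 19 after injury at 1.0 µg/µl, and the tissue was taken on day 21. Both libraries therefore share the injury, the cannula and the repeated injections, and no library of uninjured or uninjected mice was analysed here. The methods give 4 pooled mice for a thalamus library of the same study, but no such number for the antibody-injected mice. The mice were 12 weeks old, an age given for all animals together. With 1 library per antibody there was no replicate, so no difference was tested, and every interval below covers counting error alone.

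Iron enters most cells bound to transferrin through the transferrin receptor Tfrc, and phagocytes also pump it out of their phagosomes with Slc11a1 (Nramp1). Inside the cell it is stored in ferritin, a shell of heavy chains (Fth1), which oxidise iron, and light chains (Ftl1), which help to lay it down as mineral, and it leaves the cell through ferroportin (Slc40a1). Heme taken up with dying cells or red blood cells is opened by heme oxygenase 1 (Hmox1), which releases iron and biliverdin. Blvrb reduces flavins and some forms of biliverdin. Ireb2 (IRP2) is an RNA-binding protein that, in iron-poor cells, sits on hairpins called iron-responsive elements (IREs): in the leader of a message it blocks translation, and in the tail of the Tfrc message it protects the message from decay. In injured brain, microglia and incoming macrophages are known to clear heme and to load ferritin.

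The elements that tie these genes together are shown because a count of messages does not record control of translation by those in a leader. Those in the tail of the Tfrc message act on its decay, which a count can reflect. A search of the mouse transcripts (GENCODE M21 annotation, GRCm38 build) for an unpaired C, a stem of 5 paired bases and a loop of CAGTG followed by A, C or T found elements in 4 of the 8 genes. The same motif stood in 222 of 21877 genes with a coding transcript (1.01%). Each line gives 30 bases, with the 6-base loop in capitals.
Fth1, 5′ UTR, chr19:9982732-9982761, plus strand: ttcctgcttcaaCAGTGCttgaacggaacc
Ftl1, 5′ UTR, chr7:45459778-45459807, minus strand: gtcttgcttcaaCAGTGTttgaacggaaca
Slc40a1, 5′ UTR, chr1:45925464-45925493, minus strand: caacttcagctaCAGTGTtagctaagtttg
Tfrc, 3′ UTR, chr16:32631219-32631248, plus strand: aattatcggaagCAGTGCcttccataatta
Tfrc, 3′ UTR, chr16:32631598-32631627, plus strand: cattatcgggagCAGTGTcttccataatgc
Tfrc, 3′ UTR, chr16:32631663-32631692, plus strand: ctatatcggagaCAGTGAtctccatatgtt
Tfrc, 3′ UTR, chr16:32631710-32631739, plus strand: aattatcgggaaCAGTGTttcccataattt
The storage genes and the exporter carried 1 element each before the coding sequence, and Tfrc carried 4 after it. None was found by this search in the transcripts of Hmox1, Slc11a1, Blvrb or Ireb2, which says only that these letters were not there.

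The control Ab library held 12245 barcodes and 38042608 UMIs (unique molecular identifiers, each standing for 1 captured message), and the anti-CD9 Ab library 15173 barcodes and 40825201 UMIs. Cells with 200 to 7500 genes and no more than 2% mitochondrial UMIs were kept, which left 7467 and 9162 cells with medians of 1880 and 1419 UMIs. Only 18 barcodes were shared between the kept cells of the libraries. The cells fell into 24 clusters, built without the 8 genes and named "-like" from marker genes, and 9 named classes held at least 50 cells in each library. In the NK cell-like class 9 of 10 T cell markers were raised too, with Cd8b1 and Cd8a among its leading genes, so it was not separate from T cells. The sort held glia as well as leukocytes, with 433 and 94 astrocyte-like cells. The makeup differed strongly: neutrophil-like cells numbered 65 after control Ab and 2750 after anti-CD9 Ab, macrophage-like cells 198 and 1242, the microglia-like class 2215 and 1032, and the T cell-like class 2800 and 1007. Another 659 control Ab cells (8.83% of those kept) and 2126 anti-CD9 Ab cells (23.2%) had no class and are not among the 9. Their largest cluster held 26 and 1199 cells, with 36.2% predicted doublets. Over these unlike cells Fth1 stood 13.3-fold higher after anti-CD9 Ab. Predicted doublets were marked but kept, and made up 10.3% and 11.4% of the kept cells. The sum of 10 neutrophil markers was higher after anti-CD9 Ab in T cell-like cells too, at 190 and 867 CPM (UMIs of a gene scaled to 1000000 UMIs of its class and library, the scale of every level below); its values stand beside the ferritin results.

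Across the classes, the heavy chain Fth1 and the heme oxygenase Hmox1 stood higher after anti-CD9 Ab wherever they had at least 50 UMIs over both libraries, the minimum for a gene to be counted in a class. The light chain Ftl1 did not move with Fth1 in every phagocyte class: it was lower after anti-CD9 Ab in macrophage-like cells, higher in neutrophil-like cells and near 0 on the log2 scale over microglia-like cells as a whole. The exporter Slc40a1 was lower in microglia-like cells. Of the 8 genes counted in microglia-like cells, 1 was at least 2-fold higher after anti-CD9 Ab (Hmox1) and 0 were 2-fold lower, where 3.56% of all 11185 genes counted there were 2-fold higher and 4.05% were 2-fold lower. Of 7 counted in macrophage-like cells, 1 was 2-fold higher (Fth1) and 0 were lower, against 8.33% and 6.48% of 9031 genes. Of 7 counted in T cell-like cells, 2 were 2-fold higher (Slc11a1 and Tfrc) and 0 were lower, against 3.68% and 2.53% of 9778 genes. Neutrophil-like cells are given by the values of the genes alone. The 65 control Ab cells there held only 72243 UMIs. The median log2 ratio of anti-CD9 Ab over control Ab was 0.40 over the 8 genes in microglia-like cells (0.03 over all genes), 0.41 over 7 in macrophage-like cells (−0.02 over all genes) and 0.80 over 7 in T cell-like cells (−0.09 over all genes).

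**Figure D1:**
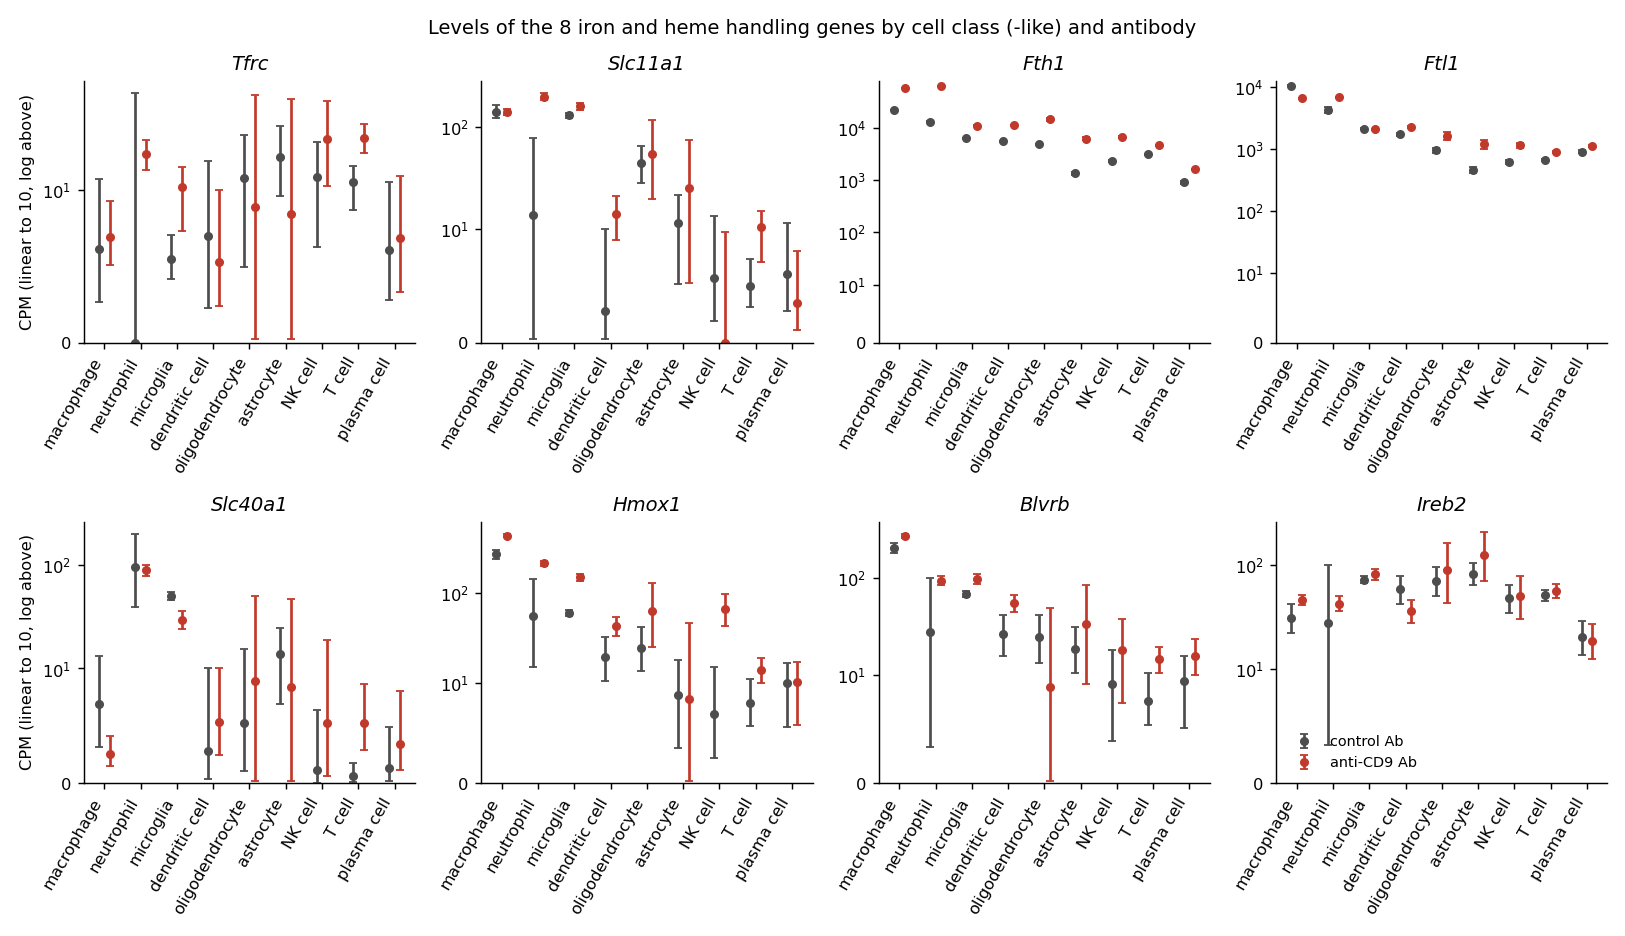
Level of each of the 8 genes in CPM (linear to 10, log above) in the 9 cell classes, for the control Ab library (grey) and the anti-CD9 Ab library (red); points are summed counts and bars 95% counting intervals. Fth1 points lie highest, from 907 to 63348 CPM, and the red Fth1 point lies above the grey one in each of the 9 classes.

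Storage genes came first by level. In macrophage-like cells Fth1 stood at 21990 CPM (95% interval 21737 to 22246) after control Ab and 59012 CPM (58827 to 59197) after anti-CD9 Ab, a 2.68-fold difference (log2 1.42, 1.41 to 1.44). In neutrophil-like cells it stood at 12970 and 63348 CPM, 4.88-fold apart (log2 2.29, 2.20 to 2.38). In microglia-like cells it stood at 6342 CPM (6295 to 6390) and 11078 CPM (10963 to 11194), 1.75-fold apart (log2 0.80, 0.79 to 0.82). The intervals of the libraries were apart in 9 of 9 classes, with the smallest ratio in T cell-like cells (3108 and 4671 CPM, 1.5-fold). In some classes few anti-CD9 Ab cells held much of it. A single cell held 434 of 2503 Fth1 UMIs in NK cell-like cells and 258 of 736 in astrocyte-like cells. The top 1% of T cell-like cells held 4.04% and 18.7% of the UMIs. That share was 5.54% and 4.88% in macrophage-like cells and 15.9% and 16.5% in microglia-like cells. The order of the classes also differed, since macrophage-like cells led after control Ab and neutrophil-like cells after anti-CD9 Ab. Fth1 and Ftl1 together made up 3.24% of all UMIs of macrophage-like cells after control Ab and 6.56% after anti-CD9 Ab, and 1.72% and 7.01% in neutrophil-like cells. The neutrophil-like class pooled clusters whose makeup differed between the libraries. In the cluster led by Retnlg and S100a8 (55 and 1391 cells) the share was 1.48% and 4.35%. In the cluster led by Cxcl2 and Ccl4 (10 and 1359 cells) it was 3.31% and 9.27%.

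Fth1 is abundant in neutrophils, and neutrophil markers moved with it. Their sum was higher after anti-CD9 Ab in 8 of the 9 classes, all but the neutrophil-like cells themselves, and stood at 528 and 1263 CPM in microglia-like cells (9 of 10 markers higher), 380 and 1146 CPM in macrophage-like cells (9 of 10) and 243 and 5109 CPM in oligodendrocyte-like cells (10 of 10). One of the 10, Csf3r, is also expressed by microglia and held 413 and 478 CPM of the microglia-like sums, so the other 9 stood at 116 and 785 CPM there, 6.79-fold apart. Clec4d held 88.2 and 405 CPM of the macrophage-like sums, where S100a8 held 62.1 and 193 CPM. In neutrophil-like cells after anti-CD9 Ab the order was the other way, with Clec4d at 2091 CPM and S100a8 at 11044 CPM. Leaving out cells with these markers thus also left out macrophage-like cells with Clec4d, and whether that message was their own was not tested. When only cells without a UMI of any of the 10 markers were summed, Fth1 in T cell-like cells stood at 3119 and 3520 CPM, a log2 ratio of 0.17 in place of 0.59. In plasma cell-like cells it then stood at 867 and 918 CPM, with an interval of the log2 ratio that held 0 (−0.06 to 0.22). In macrophage-like cells it stood at 19394 and 35249 CPM (log2 0.86, 0.82 to 0.90), from the 130 anti-CD9 Ab cells, 10.5% of their class, that had no such UMI. In microglia-like cells it stood at 4858 and 7755 CPM (log2 0.67, 0.62 to 0.73), from 735 and 238 cells. Csf3r removed most of the microglia-like cells, so the step was repeated with the other 9 markers. Fth1 in microglia-like cells then stood at 5268 and 7216 CPM (log2 0.45, 0.43 to 0.48), from 2001 and 715 cells, and in macrophage-like cells at 17788 and 35558 CPM (log2 1.00, 0.97 to 1.03), from 116 and 243 cells. In T cell-like cells the log2 ratio was 0.18, and in plasma cell-like cells, where 144 and 81 cells remained, it was 0.48 (0.35 to 0.60), with an interval above 0. The Fth1 ratio in microglia-like, macrophage-like and T cell-like cells was thus smaller in cells without these markers than over the whole class, under both sets of markers. How much of the remaining difference came from free neutrophil RNA was not tested.

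**Figure D2:**
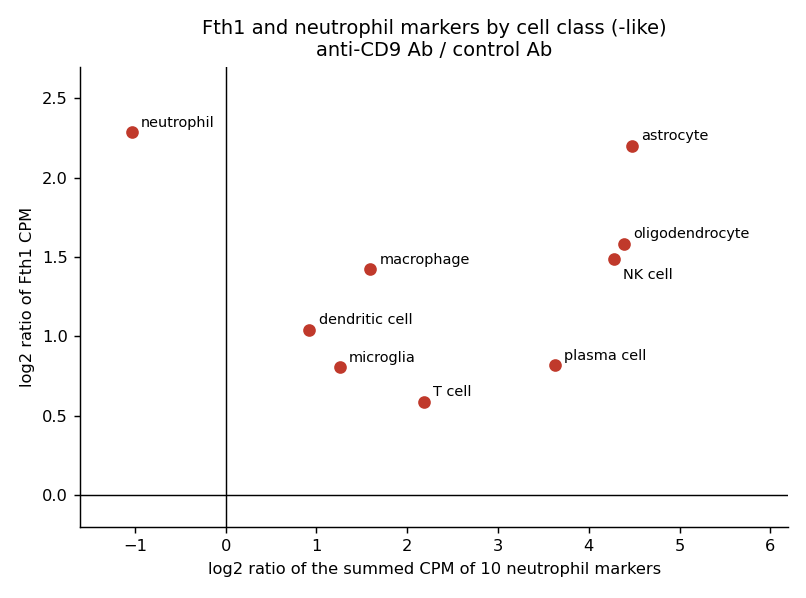
Log2 ratio of Fth1 CPM, anti-CD9 Ab to control Ab, against that of the summed CPM of 10 neutrophil markers, 1 point for each of the 9 cell classes. Every class lies above 0 for Fth1, and every class but the neutrophil-like cells also lies to the right of 0 for the markers.

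The macrophage-like class was not 1 population, and its makeup differed between the libraries. Clustered again, 108 control Ab and 243 anti-CD9 Ab cells formed a sub-cluster led by Spp1, Gpnmb and Fabp5 (a lipid-handling profile), while 12 and 521 cells formed one led by Nos2, Lcn2 and Saa3 (an inflammatory profile). The first held Fth1 at 22091 and 45818 CPM (log2 1.05, 1.03 to 1.08), with neutrophil marker sums of 327 and 458 CPM. The second held Fth1 at 69255 and 87229 CPM (log2 0.33, 0.29 to 0.38). The inflammatory sub-cluster, which was mostly from the anti-CD9 Ab library, thus carried the most Fth1 in both libraries, and within each of these sub-clusters Fth1 was also higher after anti-CD9 Ab. A sub-cluster led by monocyte genes (Vcan, Chil3 and Ccr2, 14 and 240 cells) held 11178 and 25755 CPM, and one led by microglial genes (Nav3, P2ry12 and Gpr34, 49 and 172 cells) 17427 and 36782 CPM. The remaining sub-clusters were led by T cell genes (15 and 38 cells, 56.6% predicted doublets) and by neutrophil genes (0 and 28 cells, 89.3% predicted doublets).

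Microglia-like cells comprised 3 clusters. A Siglech and P2ry12 cluster (932 and 475 cells), with the profile of resting microglia, held Fth1 at 3536 and 4875 CPM (log2 0.46, 0.42 to 0.50). A cluster led by Lpl, Cst7 and Spp1 (935 and 326 cells), genes of damage-associated microglia, held it at 8300 and 19160 CPM (log2 1.21, 1.19 to 1.23). The last cluster, of low depth and led by Lysmd4, Gm2245 and Gm35188, held 1968 and 6925 CPM. Fth1 was therefore highest in the damage-associated cluster in both libraries, and its ratio there was larger than in the Siglech and P2ry12 cluster. The neutrophil markers other than Csf3r summed to 129 and 1642 CPM in the damage-associated cluster. In the Siglech and P2ry12 cluster they summed to 100 and 117 CPM. How much of the larger ratio came from neutrophil RNA was not tested. In a finer grouping, 770 and 290 cells led by Ctnna3, Cst7 and Lpl held Fth1 at 6311 and 10872 CPM (log2 0.78, 0.75 to 0.82), with sums of the 9 neutrophil markers other than Csf3r of 36.4 and 99.8 CPM. Cells led by Slc2a5 and Siglech (511 and 163) had a log2 ratio of 0.62 (0.53 to 0.72). Those led by Aoah and Ccl12 (261 and 261) had 0.80 (0.74 to 0.86). Among these sub-clusters the ratio was thus not clearly larger in cells with damage-associated genes. It was larger in a mixed sub-cluster (165 and 33 cells, 31.8% predicted doublets), at 10090 and 32186 CPM (log2 1.67, 1.64 to 1.71). Gpnmb and Fabp5 were among the leading genes there, beside T cell and macrophage markers. The 9 neutrophil markers other than Csf3r summed to 107 and 855 CPM in it. A sub-cluster led by neutrophil genes (22 and 57 cells, 70.9% predicted doublets) held 5967 and 28065 CPM. Without predicted doublets the log2 ratio of Fth1 in microglia-like cells was 0.45.

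The light chain behaved differently from the heavy chain. In macrophage-like cells Ftl1 stood at 10371 CPM (10197 to 10547) after control Ab and 6549 CPM (6487 to 6611) after anti-CD9 Ab, 1.58-fold lower (log2 −0.66, −0.69 to −0.64). In microglia-like cells it stood at 2113 and 2079 CPM, with an interval of the log2 ratio that held 0 (−0.06 to 0.02). That value pooled unlike cells: Ftl1 stood at 2791 and 3283 CPM in the Lpl, Cst7 and Spp1 cluster (log2 0.23, 0.19 to 0.28) and at 1145 and 1185 CPM in the Siglech and P2ry12 cluster (log2 0.05, −0.03 to 0.13). It was higher in 6 of the 7 microglia-like sub-clusters with a value in both libraries, 5 of them with an interval above 0, and lower in the one led by Cxcl10 and Ifit3 (1953 and 1291 CPM, log2 −0.60). In microglia-like cells without a UMI of the 9 neutrophil markers other than Csf3r it stood at 1835 and 1606 CPM (log2 −0.19, −0.25 to −0.14). Over all microglia-like cells the direction of Ftl1 therefore depended on which cells were summed. It was higher after anti-CD9 Ab in the other 7 classes, from plasma cell-like cells (907 and 1114 CPM) to astrocyte-like cells (458 and 1187 CPM). In the latter a single anti-CD9 Ab cell held 70 of 141 Ftl1 UMIs. In cells without those 9 markers its interval held 0 in astrocyte-like (log2 0.28), dendritic cell-like (0.04) and oligodendrocyte-like cells (−0.39). It stayed above 0 in NK cell-like (0.48), plasma cell-like (0.24) and T cell-like cells (0.10), and neutrophil-like cells were not included. The macrophage-like difference kept its sign in 5 of the 5 sub-clusters with cells of both libraries, at 13158 and 10790 CPM among the Spp1 and Gpnmb cells (log2 −0.29) and 7579 and 6305 CPM among the Nos2 and Lcn2 cells (log2 −0.27).

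The balance between the chains was read as the ratio of Fth1 to Ftl1 UMIs, which compares messages directly because the 3′ kit counts each message by its end and needs no scaling by length. In macrophage-like cells it was 2.12 (2.08 to 2.16) after control Ab and 9.01 (8.92 to 9.10) after anti-CD9 Ab. It was 3.03 and 9.32 in neutrophil-like cells, 3.0 and 5.33 in microglia-like cells, and 4.66 and 5.20 in T cell-like cells. The ratio was higher after anti-CD9 Ab, with intervals apart, in 9 of 9 classes, down to the plasma cell-like cells at 1.00 and 1.43. It was also higher in 5 of 5 macrophage-like sub-clusters that held cells of both libraries (1.68 and 4.25 in the Spp1 and Gpnmb cells, 9.14 and 13.8 in the Nos2 and Lcn2 cells) and in 7 of 7 microglia-like sub-clusters with a ratio in both, 6 of them with intervals apart. Among T cell-like clusters, the one led by Il17a and Trdc (650 and 149 cells) went the other way. It had 4.98 (4.62 to 5.38) and 4.43 (3.98 to 4.94), with overlapping intervals. The other T cell-like clusters had the higher ratio after anti-CD9 Ab. Their intervals were apart in the clusters led by Themis (4.64 and 6.09) and by Tnfrsf4 (3.46 and 4.43), and overlapped in the rest. The ratio was high in anti-CD9 Ab neutrophil-like cells, and how much of the difference in other classes came from neutrophil RNA was not tested. Reads of ferritin chains can be split among near-identical copies, and the row of the copy Ftl1-ps1 held 418 and 881 UMIs beside 48353 and 106815 of Ftl1, so the exact ratio is uncertain.

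**Figure D3:**
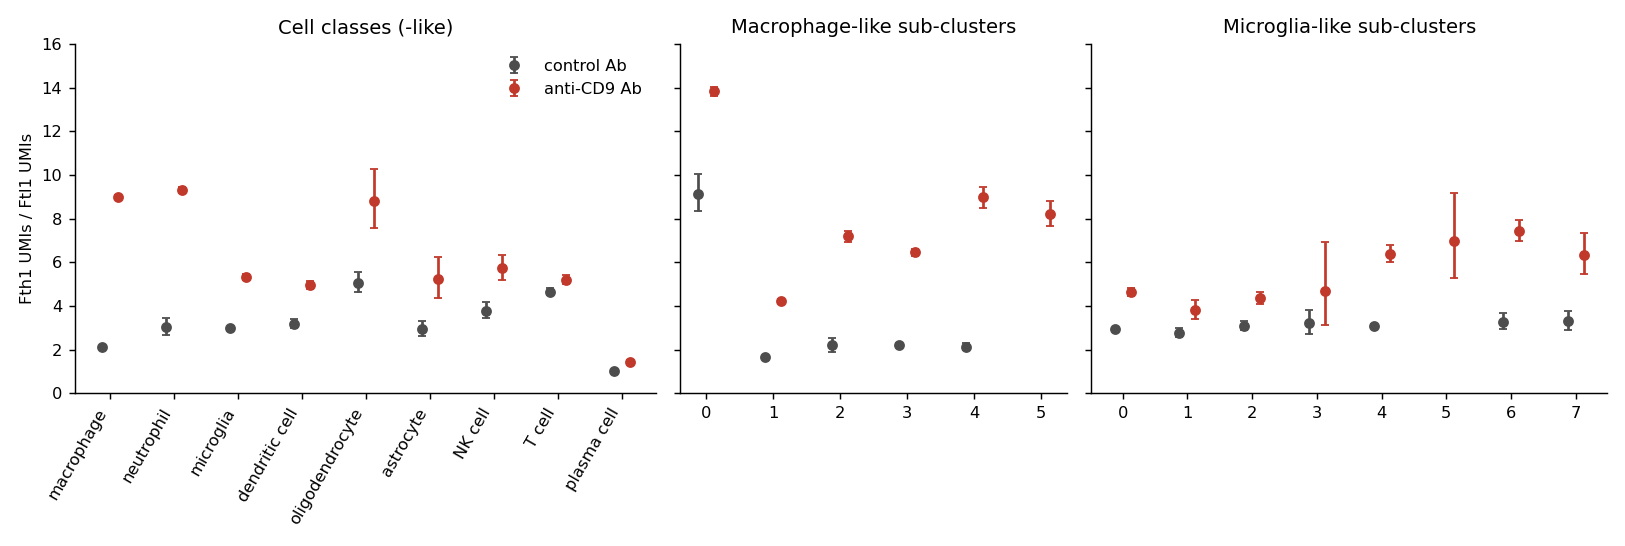
Ratio of Fth1 to Ftl1 UMIs (linear axis from 0) with 95% counting intervals in 9 cell classes, 6 macrophage-like sub-clusters and 8 microglia-like sub-clusters, control Ab in grey and anti-CD9 Ab in red. Red lies above grey wherever both are drawn, and the widest gap among classes is in macrophage-like cells, from 2.12 to 9.01; macrophage-like sub-cluster 5 and microglia-like sub-cluster 5 have no control Ab ratio.

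Heme breakdown was represented by Hmox1 and Blvrb. Hmox1 was highest in macrophage-like cells in both libraries, at 268 CPM (241 to 298, 350 UMIs) after control Ab and 434 CPM (418 to 450, 2865 UMIs) after anti-CD9 Ab, 1.62-fold apart (log2 0.69, 0.53 to 0.85). Microglia-like cells held it at 60.4 CPM (55.9 to 65.3, 651 UMIs) and 150 CPM (136 to 164, 480 UMIs), 2.47-fold apart (log2 1.31, 1.14 to 1.48). In neutrophil-like cells it rested on 4 UMIs after control Ab, at 55.4 CPM (15.1 to 142), against 212 CPM (197 to 228) after anti-CD9 Ab. T cell-like cells, which should express little of it, had 8.02 and 14.0 CPM. In each of the 5 classes with at least 50 Hmox1 UMIs the interval of the log2 ratio lay above 0, with ratios of 1.62-fold to 3.84-fold. In cells without a UMI of the 9 neutrophil markers other than Csf3r, it stayed above 0 in microglia-like (log2 0.67, 0.41 to 0.92) and macrophage-like cells (0.90, 0.56 to 1.23). It then held 0 in T cell-like (0.54, −0.24 to 1.31) and dendritic cell-like cells (0.64, −0.69 to 1.96). A single anti-CD9 Ab dendritic cell-like cell held 26 of the 73 Hmox1 UMIs there.

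Single cells carried much of the Hmox1 signal. In macrophage-like cells of the control Ab library, 1 cell held 90 of 350 Hmox1 UMIs and also 62 of the 71 UMIs of Hbb-bs, a globin of red blood cells, found in that group. Without it the control Ab level was 200 CPM, and without the highest cell of each library the log2 ratio was 1.08 in place of 0.69. In microglia-like cells of the anti-CD9 Ab library, 1 cell held 116 of 480 Hmox1 UMIs and no Hbb-bs UMI. Without it the anti-CD9 Ab level was 114 CPM, and without the highest cell of each library the log2 ratio was 0.95. A different microglia-like cell of that library held 735 of the 771 Hbb-bs UMIs of the class. The Hmox1 difference therefore narrowed in microglia-like cells and widened in macrophage-like cells when the highest cells were left out.

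To equalise depth, cells with at least 1000 UMIs were thinned to 1000 UMIs, and shallower cells were left out. Thinned shares therefore cover fewer cells than those before thinning. Of T cell-like cells, 339 of 2800 and 70 of 1007 were left out. The thinned share of cells with an Hmox1 UMI was 14.8% (10.1 to 20.6) of macrophage-like cells after control Ab and 27.4% (24.9 to 30.02) after anti-CD9 Ab. Before thinning the shares were 60.6% and 63.8%, at median depths of 6078 and 5041 UMIs. In microglia-like cells the thinned shares were 4.73% (3.83 to 5.77) and 7.45% (5.80 to 9.40), and before thinning 17.4% and 19.3%. In T cell-like cells, the background type, they were 1.02% and 1.60% thinned and 1.39% and 3.48% before, at median depths of 1554 and 2328 UMIs. More macrophage-like cells thus had Hmox1 at equal depth, and both phagocyte classes lay above the T cell background.

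Hmox1 also followed the microglial clusters. It stood at 33.8 and 54.0 CPM in the Siglech and P2ry12 cluster (log2 0.68, 0.29 to 1.07) and at 79.4 and 277 CPM in the Lpl, Cst7 and Spp1 cluster (log2 1.80, 1.61 to 2.00). The cell with 116 Hmox1 UMIs lay in the latter cluster, among 377 UMIs after anti-CD9 Ab, and without the highest cell of each library the levels there were 76.8 and 194 CPM (log2 1.33, 1.12 to 1.55). A sub-cluster of 165 and 33 microglia-like cells was mixed, with 31.8% predicted doublets. Its leading genes included Skap1, a T cell marker, Plac8, Lgals3, Igha and the macrophage markers F13a1 and Lyz2. Gpnmb and Fabp5, from the list of damage-associated microglial genes, were also among them. Hmox1 there stood at 96.8 and 724 CPM, and at 90.8 and 245 CPM without the highest cell of each library. Among macrophage-like cells it stood at 212 and 492 CPM in the Spp1 and Gpnmb cells (log2 1.22, 0.95 to 1.48) and at 506 and 609 CPM in the Nos2 and Lcn2 cells (log2 0.27, −0.23 to 0.76). Of the 33 control Ab UMIs in the Nos2 and Lcn2 cells, a single cell held 23. Without the highest cell of each library the levels there were 170 and 590 CPM (log2 1.80, 0.90 to 2.69). In the sub-cluster led by monocyte genes the order was the other way, at 1747 and 189 CPM, where the single control Ab cell with 90 Hmox1 UMIs lay among 14. Without the highest cell of each library the levels in that sub-cluster were 60.7 and 178 CPM, with an interval of the log2 ratio that held 0 (−0.09 to 3.20).

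Blvrb, like Hmox1, was highest in macrophage-like cells in both libraries. It stood at 205 CPM (181 to 231) and 273 CPM (260 to 285) in macrophage-like cells, 1.33-fold apart (log2 0.41, 0.23 to 0.60). Among microglia-like cells Blvrb stood at 68.7 CPM (740 UMIs) and 98.1 CPM (315 UMIs), log2 0.51 (0.32 to 0.70). It was higher after anti-CD9 Ab in 5 of the 5 classes where it was counted, with intervals above 0 in 4, the exception being neutrophil-like cells with 2 control Ab UMIs. At 1000 UMIs per cell, 15.8% and 22.9% of macrophage-like cells and 5.56% and 7.45% of microglia-like cells had a Blvrb UMI, against 0.650% and 1.07% of T cell-like cells. In the Nos2 and Lcn2 macrophage-like cells it was lower after anti-CD9 Ab, at 506 and 319 CPM, from 33 control Ab UMIs.

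The exporter Slc40a1 was a gene of microglia-like and neutrophil-like cells in these libraries. In microglia-like cells it stood at 50.7 CPM (46.5 to 55.1, 546 UMIs) after control Ab and 29.6 CPM (23.9 to 36.2, 95 UMIs) after anti-CD9 Ab, 1.71-fold lower (log2 −0.78, −1.09 to −0.46). In neutrophil-like cells it stood at 96.9 CPM (39.0 to 200) and 89.2 CPM (79.4 to 99.9), from 7 and 302 UMIs, and the libraries overlapped. In macrophage-like cells it had 9 and 17 UMIs, at 6.90 and 2.57 CPM, too few to be counted. The share of macrophage-like cells with a Slc40a1 UMI at equal depth was 0.510% and 0.246%. In T cell-like cells it was 0% (a UMI in 0 of 2461 cells, which allows a share of cells with a UMI of up to 0.122%) and 0.320%. These shares did not stand clear of background. T cell-like levels were 0.617 CPM (0.127 to 1.80, 3 UMIs) and 5.23 CPM (2.93 to 8.63, 15 UMIs). By level, macrophage-like cells lay above them after control Ab (3.16 to 13.1), on few UMIs, but not after anti-CD9 Ab. Macrophage-like cells in the injured thalamus thus had high ferritin and Hmox1 and little ferroportin message in either library.

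Slc40a1 was lower after anti-CD9 Ab in 6 of the 7 microglia-like sub-clusters with a UMI in both libraries, 4 of them with an interval below 0. In the Siglech and P2ry12 cluster it stood at 74.0 and 27.9 CPM (log2 −1.41, −1.86 to −0.95), and in the Lpl, Cst7 and Spp1 cluster at 36.0 and 29.4 CPM (log2 −0.29, −0.77 to 0.19). Among finer sub-clusters it was lower after anti-CD9 Ab in those led by Slc2a5 and Siglech (94.0 and 43.9 CPM), by Aoah and Ccl12 (76.7 and 23.3 CPM) and by Ctnna3, Cst7 and Lpl (40.7 and 21.6 CPM, log2 −0.91, −1.52 to −0.30). The difference was therefore not limited to cells with a resting profile. The exception was the sub-cluster led by neutrophil genes, where it was higher (42.8 and 97.0 CPM). At 1000 UMIs per cell, 5.86% (4.86 to 7.0) and 3.44% (2.33 to 4.88) of microglia-like cells had a Slc40a1 UMI, and 18.7% and 7.46% did before thinning.

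The uptake genes differed in their cell types. Slc11a1 marked phagocytes: after control Ab it stood at 140 CPM (121 to 162) in macrophage-like cells and 130 CPM (123 to 137) in microglia-like cells, which overlapped, and at 4.94 CPM in T cell-like cells. With anti-CD9 Ab it stood at 140 CPM (131 to 149) in macrophage-like cells, log2 −0.01 (−0.24 to 0.22), and at 159 CPM (145 to 173) in microglia-like cells, log2 0.29 (0.14 to 0.43). In neutrophil-like cells it stood at 196 CPM (182 to 212) after anti-CD9 Ab, while control Ab gave 1 UMI, a ratio of 14.2 whose log2 interval ran from 1.00 to 6.66. In T cell-like cells it had 24 and 30 UMIs, at 4.94 and 10.5 CPM. At equal depth 12.2% and 14.3% of microglia-like cells and 11.2% and 11.7% of macrophage-like cells had a Slc11a1 UMI, with overlapping intervals in each class.

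Tfrc was sparse, with 208 UMIs in the control Ab library and 339 in the anti-CD9 Ab library. In T cell-like cells it stood at 11.5 CPM (8.70 to 15.0, 56 UMIs) and 24.1 CPM (18.7 to 30.5, 69 UMIs), 2.09-fold apart (log2 1.06, 0.55 to 1.57). A cluster of cycling T cell-like cells (41 and 103 cells, led by Ube2c and Stmn1) held 1 and 27 of these UMIs. In microglia-like cells Tfrc stood at 5.48 CPM (59 UMIs) and 10.6 CPM (34 UMIs), log2 0.95 (0.34 to 1.56), and in macrophage-like cells at 6.13 and 6.96 CPM, log2 0.18 (−0.90 to 1.27). Cycling cells, which take up much iron, were thus more frequent among anti-CD9 Ab T cell-like cells, and their part in the Tfrc difference was not tested.

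The regulator Ireb2 had enough UMIs to be counted in 9 of the 9 classes. In microglia-like cells it stood at 72.6 CPM (67.6 to 77.9) and 81.9 CPM (72.3 to 92.5), log2 0.17 (−0.03 to 0.38), and in T cell-like cells at 51.4 and 56.9 CPM, log2 0.15 (−0.14 to 0.43). In macrophage-like cells it stood at 30.7 CPM (40 UMIs) and 46.3 CPM (306 UMIs), log2 0.59 (0.12 to 1.07), and in dendritic cell-like cells at 58.6 and 35.9 CPM, log2 −0.71 (−1.27 to −0.14). Those were the only 2 of the 9 classes whose interval did not hold 0. The share of microglia-like cells with an Ireb2 UMI was 25.4% and 21.3% as sequenced and 8.13% and 8.60% at equal depth, with overlapping intervals.

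**Figure D4:**
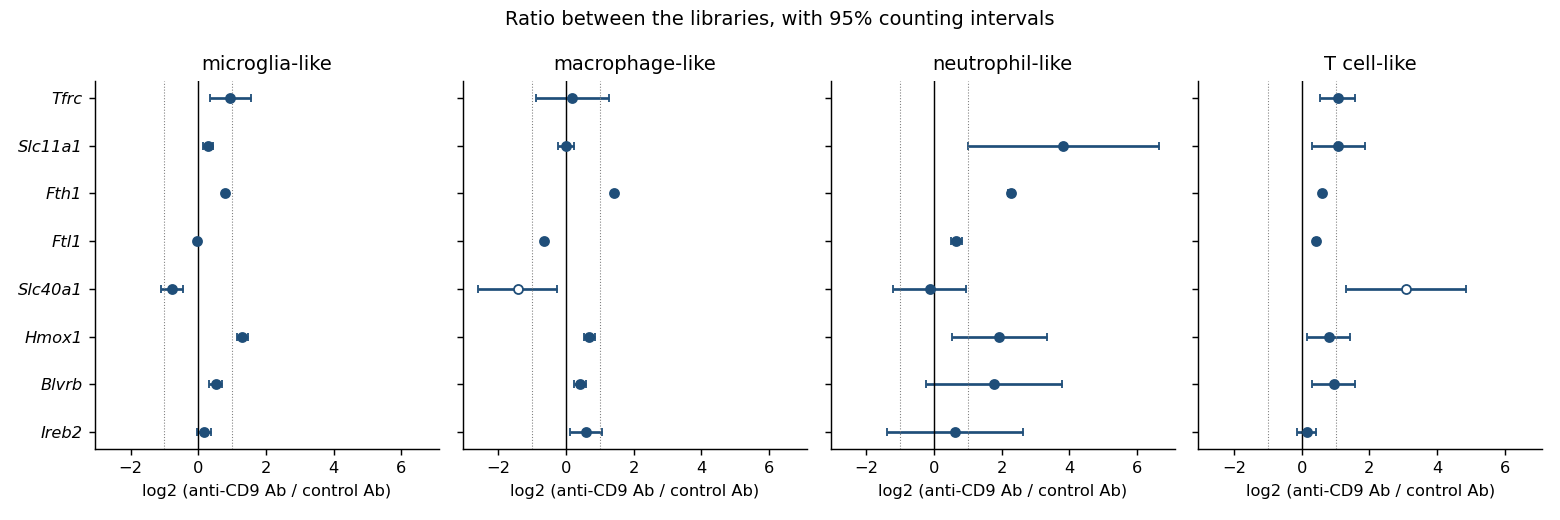
Log2 ratio of CPM, anti-CD9 Ab to control Ab, of the 8 genes in microglia-like, macrophage-like, neutrophil-like and T cell-like cells, with 95% counting intervals; dotted lines mark 2-fold, open circles genes under 50 UMIs, and a gene without a control Ab UMI has no point. Fth1 lies right of 0 in all 4 panels, from 0.59 to 2.29, and Ftl1 lies left of 0 in macrophage-like cells, at −0.66, and close to 0 in microglia-like cells, at −0.02.

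How the cells were grouped mattered most for the microglia-like class. When the libraries were clustered without integration, the class held 2034 control Ab but only 159 anti-CD9 Ab cells, and Fth1 (log2 −0.01), Slc40a1 (0.21) and Slc11a1 (−0.19) turned in direction. When the unnamed clusters nearest to microglia were added back, which gave 2266 and 897 cells, Fth1 stood at 0.70, Slc40a1 at −0.85 and Slc11a1 at 0.27, and Hmox1 at 0.83. The macrophage-like values of Fth1 (1.18) and Ftl1 (−0.87) kept their signs without integration. In T cell-like cells the median over the 7 genes was 0.80 but 0.18 with a mitochondrial limit of 5%, 0.33 without predicted doublets and 0.37 in cells without neutrophil markers.

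Other genes of the pathway were taken from a list of 58, grouped by role. In microglia-like cells 44 of them were counted, 21 higher (52.8% of all genes were) and 23 lower after anti-CD9 Ab, with a median log2 ratio of −0.01. Of these, 6 were at least 2-fold higher and 0 lower, where all genes gave 3.56% and 4.05%. In macrophage-like cells 40 were counted, 22 higher (48.5% of all genes were) and 18 lower, with a median of 0.16. Of the 40, 8 were at least 2-fold higher and 2 lower, against 8.33% and 6.48% of all genes. In T cell-like cells 40 were counted, 20 in each direction, where 39.4% of all genes were higher. Of the 40, 4 were at least 2-fold higher and 0 lower, against 3.68% and 2.53% of all genes. Of the uptake genes, 5 of 10 counted in microglia-like cells and 5 of 9 in macrophage-like cells were at least 2-fold higher, beside the same shares of all genes. In T cell-like cells, the background type, 3 of 8 were, beside 3.68% of all genes, so this was not limited to phagocyte classes. In neutrophil-like cells the 6 counted uptake genes had a median log2 ratio of −0.37, so the group was not higher in every class.

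The most different uptake gene was Lcn2, whose product lipocalin 2 binds iron-carrying siderophores, at 8.45 and 287 CPM in microglia-like cells (33.9-fold) and 16.9 and 585 CPM in macrophage-like cells (34.7-fold). It is also a neutrophil product, at 8236 and 6095 CPM in neutrophil-like cells, and how much of it in other classes was free RNA was not tested. Slc39a14 (ZIP14), an importer of iron not bound to transferrin, stood at 15.3 and 73.8 CPM in microglia-like cells and 4.6 and 40.6 CPM in macrophage-like cells. Cp (ceruloplasmin), which oxidises iron as it leaves through ferroportin, stood at 65.5 and 210 CPM in microglia-like cells (log2 1.68, 1.53 to 1.83), while Slc40a1 itself was lower there.

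In macrophage-like cells Fbxl5, which marks IRP2 for degradation when iron is plentiful, stood at 56.0 and 304 CPM (5.42-fold). The heme exporter Abcg2 stood at 22.2 and 6.81 CPM (log2 −1.71, −2.38 to −1.03), and Glrx5, of the iron-sulfur cluster machinery, at 67.5 and 34.8 CPM. Of the heme synthesis genes, 7 of 8 counted in microglia-like cells and 5 of 6 in macrophage-like cells were lower, where 47.2% and 51.5% of all genes were lower. Of these, Alad in macrophage-like cells (16.1 and 7.26 CPM) passed 2-fold. Their summed level was nevertheless 170 and 199 CPM in macrophage-like cells. In T cell-like cells 4 of 8 were lower (60.6% of all genes), and in plasma cell-like cells 0 of 3 (36.0% of all genes). In microglia-like cells Alad stood at 7.71 and 4.98 CPM, with an interval of the log2 ratio that held 0 (−1.40 to 0.14). The lowest microglial ratios among the counted genes were those of Lrp1, a receptor that takes up heme bound to hemopexin (312 and 179 CPM, log2 −0.81), Alad and Hif1a (349 and 235 CPM, log2 −0.57).

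**Figure D5:**
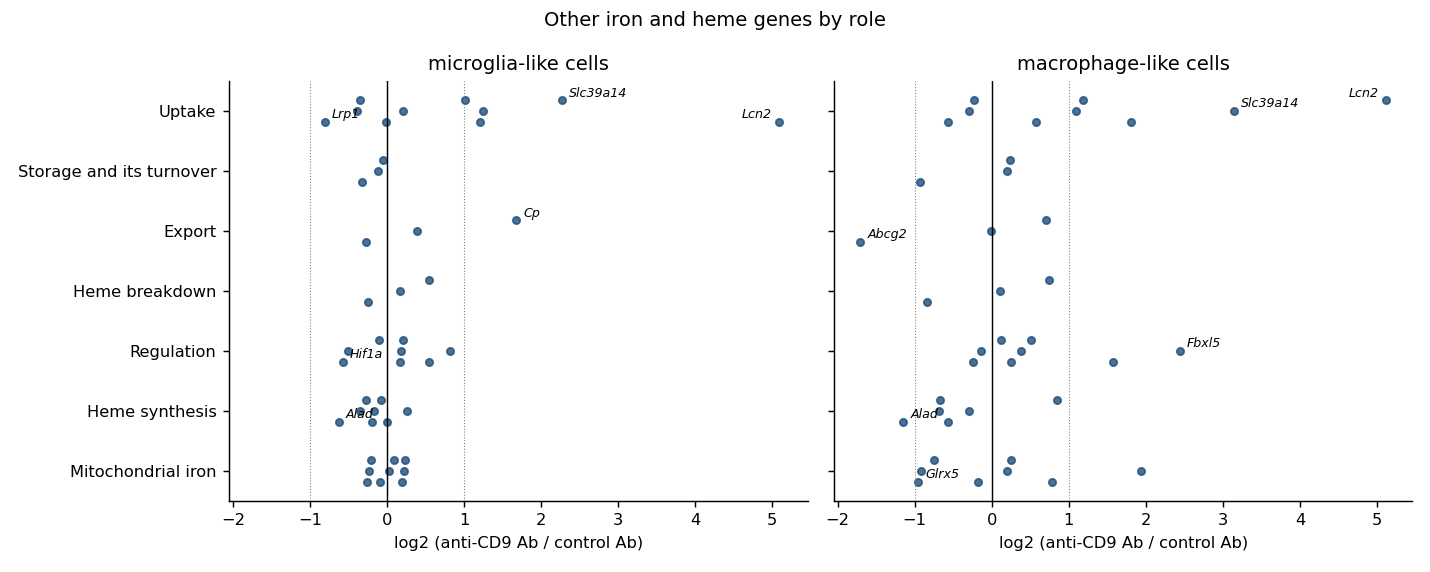
Log2 ratio of CPM, anti-CD9 Ab to control Ab, of the other iron and heme genes with at least 50 UMIs, by role, in microglia-like (left, 44 genes) and macrophage-like cells (right, 40 genes), with dotted lines at 2-fold and the 3 highest and 3 lowest genes named. Most points lie between the dotted lines, and Lcn2 lies farthest right in both panels, at 5.08 and 5.12.

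A list of 10 genes known as targets of Nrf2, the factor that also drives Hmox1, Fth1, Ftl1 and Blvrb, had 7 counted in microglia-like cells. Of these 7, 6 were higher after anti-CD9 Ab (52.8% of all genes) and 2 at least 2-fold higher (3.56%), with a median log2 ratio of 0.86. In macrophage-like cells 4 of 7 were higher (48.5% of all genes) and 3 lower, with a median of 0.03. Slc7a11, which imports cystine, stood at 15.4 and 84.4 CPM in microglia-like cells and 58.3 and 271 CPM in macrophage-like cells, while Prdx1, a peroxidase, stood at 1913 and 1127 CPM in macrophage-like cells. These 2 genes were named after their values were seen. A list of 16 genes known to respond to dissociation and stress had a median of −0.41 in microglia-like cells, where 5 of 14 were higher (52.8% of all genes). The median was 0.60 in macrophage-like cells (9 of 14 higher, 48.5% of all genes) and 1.05 in neutrophil-like cells (12 of 14, 39.7%). The part of this list in the ratios above was not tested.

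Promoters were searched for the core of the antioxidant response element, TGACNNNGC or TGAGNNNGC on either strand, in RefSeq windows from 250 bases before to 50 after the start site (GRCm38.p6). It was present in 2 of 9 windows belonging to 6 of the 8 genes (22.2%) and in 9128 of 32851 windows of all genes (27.8%), so the windows of these genes held it no more often than others. The matches are shown with 10 bases on each side and the motif in capitals.
Slc11a1, window chr1:74374953-74375252, plus strand, 52 bases before the start: tgtgaaattgTGAGCATGCcctcagtgat
Blvrb, window chr7:27447728-27448027, motif on the minus strand, 69 bases before the start: tgactcctccGCCTACTCAtgctctttcc
A match describes letters in these windows and is not a site of binding, and no window was given for Hmox1 or Slc40a1.

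The genes whose levels were most like each of the 8 were found over 20 sums, 1 for each class and library with at least 50 cells, among 11273 genes, by Pearson's r of log2(CPM + 20). These sums share libraries and depth, so the values are descriptions. Fth1 was nearest to Cstb (r = 0.96), an inhibitor of cathepsins, then Tnfrsf1b and Lilrb4a, and Ftl1 was nearest to Atp6v0c (0.98), a subunit of the proton pump of lysosomes, then Cstb and 4930430E12Rik. Hmox1 was nearest to F10 (0.90), coagulation factor X, then Bnip3 and Clec4a3, and Blvrb to Slc39a1 (0.89), then Ms4a7 and Clec4a3. Slc11a1 was nearest to Adgre1 (0.95), the macrophage protein F4/80, then Tlr2 and Lamp2. Slc40a1 was nearest to Cdh23 (0.93), then 1600022D10Rik and Alox5, a leukotriene enzyme. Tfrc had the loosest match, with Helb (0.79), then Cds2 and Dpf2, and Ireb2 was nearest to Cnot4 (0.92), then Adnp and Trappc9. Cstb was thus among the 3 nearest genes of both ferritin chains, and Clec4a3 among those of both heme genes.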

How the data were processed

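Cells sorted for CD45 were sequenced with a 10x 3′ kit (v3.1), 1 library per antibody. The deposited matrices hold raw counts (UMIs per gene and barcode), made by the authors with Cell Ranger. The methods name v6.0.2 and GRCm38, and the submitters' processing notes 8.0.0 and GRCm39, so no coordinate was taken from the files.

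Cells with 200 to 7500 genes and up to 2% mitochondrial UMIs were integrated and clustered in Seurat 5.3.0 (R 4.3.3; 2000 variable genes without the 8 genes, the iron list and microglial state genes; 30 components; resolution 0.8). The cell filters and the anchor integration are those of the methods, and the genes left out, components and resolution were chosen here; the methods also name Harmony, which was not run. A cluster was named when at least 50% of a marker list, and at least 3 markers, were raised. Scrublet (scanpy 1.11.5) marked doublets. UMIs were summed by class and library and divided by the class total (CPM). Intervals are exact Poisson for counts, exact Clopper-Pearson for shares (a share of 0 is given with the limit that 3 counts set), and Poisson for log2 ratios (SciPy 1.17.1), at 95%. Libraries without replicates permit no test. Scripts were tested on simulated counts.

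Named genes were the 8 genes, the 3 highest and 3 lowest list genes in microglia-like and macrophage-like cells, and the 3 genes most like each member. The members and lists were chosen with earlier results of these data known. Alternatives were another mitochondrial limit, no integration, 20 components, no doublets, per-cell means, other weights and thinning. Those added after the data were seen left out the highest cell of each gene, cells with neutrophil markers or mixed sub-clusters, or added unnamed clusters.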

Additional observations from a re-analysis of the deposited data

Results flagged for a closer look

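Ftl1 moved in opposite directions in different classes: counting intervals lay below 0 in macrophage-like cells (log2 ratio −0.66) and above 0 in astrocyte-like (1.37), NK cell-like (0.89), oligodendrocyte-like (0.79), neutrophil-like (0.67), T cell-like (0.43), dendritic cell-like (0.40) and plasma cell-like cells (0.30). In cells without a UMI of the 9 neutrophil markers other than Csf3r, the Ftl1 interval held 0 in astrocyte-like, oligodendrocyte-like and dendritic cell-like cells. It stayed below 0 in macrophage-like cells (−0.74). Ireb2 was higher with anti-CD9 Ab in macrophage-like cells (0.59) and lower in dendritic cell-like cells (−0.71). With 1 library per antibody, neither difference between classes was tested.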

How the results depend on the processing

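No paired analysis was possible because each antibody had 1 library, and for the same reason no library could be left out. The median log2 ratio in microglia-like cells (0.40) was 0.15 without integration and 0.62 in cells without a neutrophil marker UMI. The number of the 8 genes at least 2-fold apart there (1) was 0 without integration, 0 without the highest cell of each gene, and 0 without integration with the nearest unnamed clusters added. It was 2 with a mitochondrial limit of 5%, with 20 components, without doublets, with equal weight of sub-clusters, without sub-clusters 4 and 6, and with the nearest unnamed clusters added to the integrated classes. Without integration Fth1 (−0.012), Slc40a1 (0.21) and Slc11a1 (−0.19) were reversed in microglia-like cells, where 159 anti-CD9 Ab cells remained. The median in macrophage-like cells (0.41) was 0.64 with equal weight of sub-clusters and 0.18 in cells without a neutrophil marker UMI. The count there (1) was 2 when genes under 50 UMIs were included, with equal weight of sub-clusters, without the highest cell of each gene, and without sub-clusters 2, 3, 4 and 5, and it was 0 in cells without a neutrophil marker UMI, also when Csf3r was not used as a marker. The difference in the share of microglia-like cells with an Ireb2 UMI was reversed by thinning, to 0.473 percentage points. Settings that used the highest cell, neutrophil markers, left-out sub-clusters or added clusters were chosen after seeing the data. Among single genes' log2 ratios, 176 values under alternatives moved by less than the counting interval, 76 moved by more, and 3 were reversed; among medians and counts, 43 were alike and 19 moved, and among shares 13 were alike, 10 moved and 1 was reversed. The sequenced depth limits Tfrc and Slc40a1, which had under 50 UMIs in most classes.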

Other observations

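A cluster without a name, led by Gdf15 and Hilpda, held 745 anti-CD9 Ab cells and 2 control Ab cells, so it allowed no comparison between antibodies. In the anti-CD9 Ab cells Fth1 stood at 118236 CPM and Ftl1 at 24384 CPM, above every named class. Hmox1 stood at 585 CPM, Slc40a1 at 202 CPM, Slc11a1 at 268 CPM, Blvrb at 310 CPM and Tfrc at 67.9 CPM. The cells were shallow, with a median of 983 UMIs, and 2 of 10 neutrophil markers were raised in them.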
